A study of Homo sapiens with 12 samples.

Results

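HCA2 (MJ90) is an established line of human skin fibroblasts, and the cells studied here carried a doxycycline-inducible short hairpin against luciferase, a firefly gene that human cells lack. This control hairpin (shLuc) was present in young cells of low passage and in cells made senescent by ionizing radiation at 10 Gy, with 3 libraries in each group, so that 6 of the series' 12 libraries enter the comparison. Every row of the authors' deposited table of these 2 groups was used, other than 28 rows in which a date stood in place of a gene symbol, which left 55737 rows. The other 6 libraries came from the same line with a hairpin against FBXO22 (shFbxo22), 3 young and 3 senescent, and enter only the comparison given last. All groups share the line and the inducible hairpin system, and total RNA was sequenced in all of them.

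Senescence is a lasting arrest of the cell cycle in a cell that stays alive and metabolically active, and ionizing radiation brings it about through lasting DNA damage. Senescent fibroblasts are known for growing large and flat, for secreting proteases, cytokines and growth factors, and for changes in matrix, lysosomes and metabolism. Genes of the cell cycle, histones, interferon response, lysosome and sterol synthesis are left aside below, and the account covers the other functions of the cell.

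The values are the authors' log2 fold changes of senescent over young cells, and the value after each ± sign is the authors' standard error. A gene is called higher or lower where the adjusted p of the authors' DESeq2 Wald test was under 0.05. The tables hold no value per library, so group means in normalized counts were worked out from the base mean and the fold change, and have no error. These means are not scaled by gene length and compare groups, not genes. No label tells whether the 3 libraries of each group were grown apart, and the p-values therefore reflect only variation among the libraries, some or all of which could be technical. Bulk RNA cannot tell apart fewer cells of a kind and less RNA per cell. The base means summed to 21895679 normalized counts, and the depth per library is unknown.

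The labels were checked first. CDKN1A, the cell cycle inhibitor p21, was at 2.12 ± 0.10 and MKI67, a proliferation marker, at -3.43 ± 0.10 by the authors' deposited table. FBXO22, which the other hairpin targets, was at -0.25 ± 0.14 (Wald test, adjusted p = 0.16) by the authors' deposited table. In shFbxo22 libraries FBXO22 was lower than in shLuc by -0.81 ± 0.15 when young (Wald test, adjusted p = 1.07e-06), but higher by 1.01 ± 0.12 when senescent (Wald test, adjusted p = 7.91e-15), by the authors' deposited tables. In FBXO22 RNA the libraries labelled shFbxo22 senescent thus go against their label. CDKN1A was higher in them than in shLuc senescent libraries by 4.80 ± 0.09 by the authors' deposited table. In young cells CDKN1A was higher in shFbxo22 than in shLuc by 4.51 ± 0.10 by the authors' deposited table. Why FBXO22 was higher in these senescent libraries was not tested, and a wrong label cannot be told apart from a lost knockdown. Of 15 dermal fibroblast markers all were tested, and their reconstructed means summed to 730943 in young and 758832 in senescent cells, in normalized counts. The keratinocyte markers KRT5 and DSG1, the endothelial marker CDH5, the leukocyte markers CD3E and TYROBP and the melanocyte marker TYR had a base mean of 0. The tested members of the keratinocyte list summed to 47.8 normalized counts in young and 44.3 in senescent cells, those of the endothelial list to 46.6 and 78.8, and those of the leukocyte list to 163 and 113. These sums are rough, since for some members, such as CSF1R of the leukocyte list, the estimates from 2 tables did not meet. The melanocyte list summed to 832 and 1946, nearly all of it MITF, a transcription factor that fibroblasts also express, at 1.24 ± 0.11 by the authors' deposited table. The smooth muscle list summed to 5704 and 2324, with 2 of its 7 members higher and 3 lower. CNN1 and SMTN, which encode contractile proteins, were at -2.90 ± 0.12 and -2.32 ± 0.10, and NOTCH3 and DES at 0.89 ± 0.14 and 0.33 ± 0.11 by the authors' deposited table. The part of these cells or transcripts in the results below was not tested.

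The response was broad, and its calls were nearly even in direction. Normalization sets fold changes relative to the bulk of genes, so the even split and a median near 0 follow in part from it. A change in the total RNA of a cell would not show. Of 21889 genes tested, 4651 (21.2%) were higher and 4670 (21.3%) lower in senescent cells, 42.6% called in all, and 1751 of the higher (8.0% of tested) and 1869 of the lower (8.54%) moved by at least 1 on the log2 scale. At 2 or more on that scale, 441 genes were higher and 491 lower. The median absolute log2 fold change of called genes was 0.82, and the median over all tested genes was -0.003. Among the 13132 protein-coding genes tested, 27.6% were higher and 28.6% lower, which is the closer background for the lists of protein-coding genes below.

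**Figure D1:**
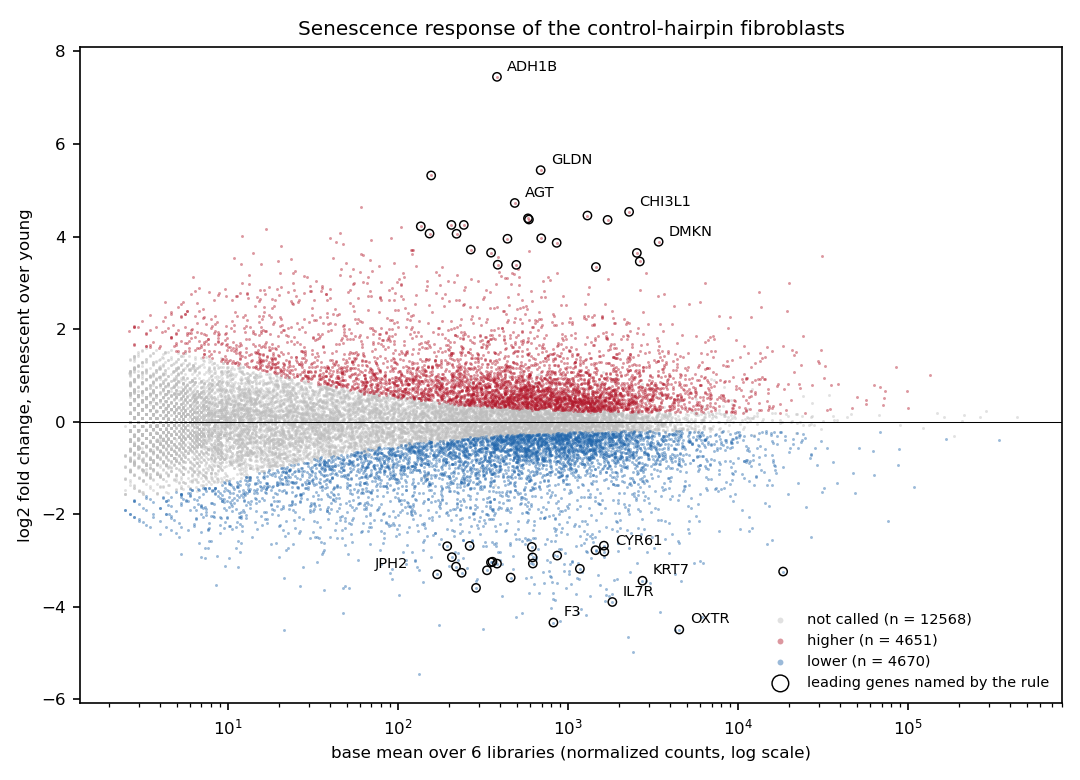
Log2 fold change of senescent over young shLuc cells against the base mean in normalized counts (log axis), 1 point per tested gene, coloured by call. The ringed genes are the 25 largest increases and 25 largest decreases named by the rule, from ADH1B at 7.45 down to OXTR at -4.49.

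The genes that rose furthest encoded secreted proteins, enzymes and transporters. Reconstructed means went from 31.3 to 1353 normalized counts for GLDN, a secreted organizer of the node of Ranvier, from 35.5 to 939 for AGT, the precursor of angiotensin, and from 190 to 4394 for CHI3L1, a secreted chitin-binding glycoprotein. Those of PTGDS, the prostaglandin D synthase of the brain and of many other tissues, went from 114 to 2493, and those of MMP11, a secreted metalloprotease of tissue remodelling, from 159 to 3265. Each of these genes was thus measured in young cells too, at a low level. DMKN, a secreted skin protein, rose by 3.89 ± 0.09 by the authors' deposited table, from 433 to 6403 normalized counts. SEPP1, which carries selenium in plasma, rose by 3.65 ± 0.17, A2M, a broad protease inhibitor, by 3.39 ± 0.16 and APOE, a lipid-carrying apolipoprotein, by 3.34 ± 0.14 by the authors' deposited table. These 3 genes are best known from liver or plasma, and their young means were 52.1, 67.4 and 263 normalized counts.

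Regulators and membrane proteins were also among the leading increases. SLC16A6, a monocarboxylate transporter, was at 4.25 ± 0.22, RRAGD, a small GTPase that links amino acid supply to mTORC1, at 4.22 ± 0.28, and FAM20A, a partner of the secretory pathway kinase FAM20C, at 3.96 ± 0.14 by the authors' deposited table. PLXNC1, a semaphorin receptor, went from 377 to 4714 normalized counts (3.65 ± 0.10 by the authors' deposited table), and FBXO32, a muscle-atrophy ubiquitin ligase subunit, from 441 to 4853 (3.46 ± 0.10). CYGB, an oxygen-binding globin of fibroblasts, was at 3.39 ± 0.15 and UNC13A, a priming factor of synaptic vesicles, at 3.72 ± 0.21 by the authors' deposited table. RASL12 (4.06 ± 0.26), TSPAN11 (4.06 ± 0.23) and FAM65C (3.95 ± 0.17) rose about as far by the authors' deposited table.

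The leading decreases outside the lists set aside encoded receptors, cytoskeletal proteins, enzymes and secreted proteins, among others. OXTR, the oxytocin receptor, fell from 8657 to 384 normalized counts, F3, the tissue factor that starts coagulation, from 1568 to 77.2, and IL7R, the receptor of interleukin 7, from 3423 to 229. CTGF and CYR61, matricellular proteins and well-known targets of YAP, were at -3.37 ± 0.15 and -2.81 ± 0.11, and ACTC1, cardiac actin, at -3.21 ± 0.17 by the authors' deposited table. EPHA2, an ephrin receptor, was at -2.94 ± 0.13, SSTR1, a somatostatin receptor, at -2.68 ± 0.10, and JPH2, which ties the plasma membrane to the sarcoplasmic reticulum in heart muscle, at -3.30 ± 0.22 by the authors' deposited table. CTPS1, which makes CTP, was at -2.78 ± 0.10 and APOBEC3B, a cytidine deaminase of DNA, at -3.07 ± 0.15 by the authors' deposited table. PKMYT1, DBF4B, KIAA1524 and C11orf82, between -3.14 and -2.71, also lay among the 25, and the first of these is a kinase that restrains entry into mitosis. The lists set aside thus did not hold every gene of the cell cycle.

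Ordered by normalized counts rather than by fold, the largest shifts were in abundant transcripts of several kinds. ACTG1 and ACTB, the cytoplasmic actins, fell by 98070 and fell by 96900 normalized counts in turn, ACTB going from 124947 to 28047 with a log2 fold change of -2.16 ± 0.08 by the authors' deposited table. RMRP, the RNA of RNase MRP, fell by 92120 normalized counts, the next largest loss among the genes named. FLNA and FLNC, actin-crosslinking filamins, VIM, the intermediate filament vimentin, and ANXA2, a membrane-binding annexin, were also among the 15 largest losses. So were GAPDH, PKM and ENO1, glycolytic enzymes, with PKM at -1.11 ± 0.08 and ENO1 at -1.52 ± 0.08 by the authors' deposited table. On the other side, FTL, the light chain of ferritin, gained 90500 normalized counts (1.01 ± 0.08 by the authors' deposited table), and MMP2, a gelatinase, gained 65580 (1.17 ± 0.10). SOD2, mitochondrial superoxide dismutase, went from 4484 to 35607, DCN, the proteoglycan decorin, from 6237 to 32553, and THBS2, thrombospondin 2, from 10708 to 31123. MME, the membrane protease neprilysin, and SERPINE2, a protease inhibitor, gained 21042 and 25389. The 15 genes named for their losses together fell by 729883 normalized counts, and the 15 named for their gains together rose by 517059. Among these gains were MT-RNR2 and MT-RNR1, the mitochondrial ribosomal RNAs, and RN7SL5P and RN7SL4P, copies of the 7SL RNA whose reads cannot be told apart from those of 7SL itself.

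Transcripts for making ribosomes fell almost as a whole. Of 77 ribosome biogenesis genes tested, 64 (83.1%) fell and 2 rose, with a median log2 fold change of -0.63. Over all genes 21.3% were lower, and over protein-coding genes 28.6%. NOP2, a methyltransferase of ribosomal RNA, fell from 906 to 236 normalized counts (-1.94 ± 0.13 by the authors' deposited table). TCOF1, the treacle protein that serves transcription of ribosomal DNA, was at -1.52 ± 0.11 and NOC2L, a nucleolar factor, at -1.18 ± 0.10 by the authors' deposited table. The 2 that rose were POLR1D, a subunit shared by RNA polymerases I and III, at 0.70 ± 0.11 and TAF1D, of the polymerase I factor SL1, at 0.35 ± 0.12 by the authors' deposited table. NOP10, a protein of H/ACA particles, at -0.24 ± 0.14 and GNL3, the nucleolar GTPase nucleostemin, at 0.12 ± 0.10 did not pass the test by the authors' deposited table.

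Promoters of this group are shown with the E-box CACGTG, the sequence bound by MYC with MAX, which is known to drive ribosome synthesis. The window ran from 250 bases before to 50 after the start site, 300 bases, in the RefSeq table of GRCh38.p14, and 65 of the 77 genes had an entry. CACGTG, which is its own reverse complement, was found in 19 of the 65 (29.2%) and in 10.1% of 10699 promoters of tested genes. In 3 genes with the motif, chosen among those with the largest decreases and printed 5′ to 3′ in the direction of the gene, the motif stands in capitals. NOP2 lies at chr12:6568242-6568541 on the minus strand, NOC3L, which serves assembly of the large subunit, at chr10:94362890-94363189 on the minus strand, and NAT10, an acetyltransferase of ribosomal RNA, at chr11:34105379-34105678 on the plus strand.
NOP2: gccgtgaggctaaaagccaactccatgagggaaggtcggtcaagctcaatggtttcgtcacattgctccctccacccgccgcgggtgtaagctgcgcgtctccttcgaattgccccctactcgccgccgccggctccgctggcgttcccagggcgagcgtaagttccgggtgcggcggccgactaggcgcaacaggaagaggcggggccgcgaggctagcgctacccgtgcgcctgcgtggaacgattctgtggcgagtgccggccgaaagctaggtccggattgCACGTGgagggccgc
NOC3L: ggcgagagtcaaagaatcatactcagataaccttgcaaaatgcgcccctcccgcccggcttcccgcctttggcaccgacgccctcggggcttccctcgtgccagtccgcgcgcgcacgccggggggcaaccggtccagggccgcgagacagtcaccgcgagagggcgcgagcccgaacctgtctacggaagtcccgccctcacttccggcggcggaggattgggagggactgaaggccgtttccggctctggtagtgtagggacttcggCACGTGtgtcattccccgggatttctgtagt
NAT10: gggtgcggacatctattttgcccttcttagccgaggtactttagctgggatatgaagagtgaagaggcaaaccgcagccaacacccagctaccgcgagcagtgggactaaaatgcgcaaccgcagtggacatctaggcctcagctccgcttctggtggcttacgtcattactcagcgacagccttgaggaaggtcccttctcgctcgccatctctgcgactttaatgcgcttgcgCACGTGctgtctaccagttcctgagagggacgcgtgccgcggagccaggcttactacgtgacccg
NOC3L was at -1.23 ± 0.13 and NAT10 at -0.95 ± 0.10 by the authors' deposited table. Of the 19 genes with CACGTG 18 fell, their median log2 fold change being -0.61, and of the 46 without it 34 fell, with a median of -0.62, so the medians of the 2 sets nearly met. CCGGAAG, a core that ETS factors bind, was found on either strand in 30 of the 65 promoters (46.2%), against 18.1% of all, 7.73% of the promoters of genes higher by at least 1 and 15.5% of those lower by at least 1. Cytosolic ribosomal protein genes, which rose more often than they fell, held it in 34.3%. A match is a string of letters in this window and not a site of binding.

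The machinery that handles RNA and proteins after transcription fell with it. Splicing factors fell in 61 of 79 cases and rose in 3, with a median of -0.62. DDX39A, an RNA helicase of mRNA export and splicing, was at -2.15 ± 0.11, HNRNPH1, a splicing regulator, at -1.62 ± 0.09 and SRSF3, an SR protein, at -1.45 ± 0.09 by the authors' deposited table. The 3 that rose were regulators, CELF2 at 1.04 ± 0.12, MBNL3 at 0.82 ± 0.17 and the SR protein kinase CLK1 at 0.58 ± 0.14 by the authors' deposited table. RBFOX2 and SF3B1 did not pass, at 0.14 ± 0.08 and -0.12 ± 0.08 by the authors' deposited table. Of 58 nuclear pore and transport genes 45 fell and 3 rose, with a median of -0.67. KPNA2, an importin alpha, went from 11179 to 1353 normalized counts, with -3.05 ± 0.09 by the authors' deposited table, RANGAP1, which activates the GTPase of Ran, was at -2.62 ± 0.09, and CSE1L, which returns importin alpha to the cytoplasm, at -1.75 ± 0.10. XPOT, the exporter of tRNA, ran the other way at 1.16 ± 0.10 by the authors' deposited table. Some of these genes, KPNA2 among them, are also known to follow proliferation.

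Proteasome subunits fell in 34 of 46 cases and rose in 3. PSMD2, PSMD11 and PSMD3, of the regulatory particle, were at -1.26 ± 0.08, -0.90 ± 0.08 and -0.91 ± 0.09 by the authors' deposited table. The 3 that rose belong to the immunoproteasome and its activator, which interferon is known to induce, namely PSMB8 at 1.08 ± 0.10, PSMB9 at 1.01 ± 0.14 and PSME1 at 0.43 ± 0.09 by the authors' deposited table. Of 44 listed subunits and factors of RNA polymerases II and III, a list without the shared subunit POLR1D given above, 18 fell and none rose. Among those that fell were POLR3G at -2.13 ± 0.27, the polymerase III subunit of dividing and stem cells, and POLR3K at -1.35 ± 0.19 by the authors' deposited table. Factors of mRNA decay fell in 29 of 67 cases and rose in 10. The exosome subunits EXOSC9 and EXOSC2 were at -1.85 ± 0.12 and -1.45 ± 0.13, while ZFP36L1 and ZFP36, which bind AU-rich elements, were at 1.41 ± 0.08 and 0.76 ± 0.10 by the authors' deposited table.

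Ribosomal proteins themselves gave another pattern than the factors that assemble them. Of 86 cytosolic ribosomal protein genes, 36 rose and 9 fell, with a median of 0.18. RPL34 was at 0.74 ± 0.09, RPL28 at 0.69 ± 0.10 and RPL31 at 0.53 ± 0.08 by the authors' deposited table, and the lower members included the paralogues RPL39L and RPL26L1 at -1.12 ± 0.15 and -1.04 ± 0.16. RPS18 and RPLP0 did not pass, at 0.13 ± 0.11 and 0.02 ± 0.09 by the authors' deposited table. Ribosomal protein genes have many near-identical pseudogenes, and how the authors' counting split such reads is not given in the sources used here. Mitochondrial ribosomal proteins fell in 45 of 75 cases and rose in 3, with a median of -0.38, MRPS7 at -0.72 ± 0.11 and MRPL37 at -0.65 ± 0.09 by the authors' deposited table. Translation factors split into 17 higher and 20 lower of 52. EIF1, which guards the choice of start codon, was at 1.88 ± 0.10 and EIF4B, a helper of the helicase EIF4A, at 0.85 ± 0.07, while EIF5A, the hypusine-bearing elongation factor, was at -1.14 ± 0.08 and EIF4G1, the scaffold of cap binding, at -1.09 ± 0.09 by the authors' deposited table.

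Small nucleolar RNAs guide the chemical modification of ribosomal RNA, with C/D box RNAs directing methylation and H/ACA box RNAs pseudouridylation, and small Cajal body RNAs do the same for spliceosomal RNA. Most are cut from introns of host genes. Of 220 such RNAs tested, 113 were higher and none lower in senescent cells, namely 60 of 127 C/D box RNAs, 42 of 72 H/ACA box RNAs and 11 of 21 Cajal body RNAs. Sequences of 5 of them are shown, with the boxes that define each class in capitals, as GENCODE v29 gives their transcripts on GRCh38. In the C/D box RNAs the capitals mark the C box and the D box, and in the H/ACA box RNAs the ACA near the 3′ end. SNORD41 lies at chr19:12706449-12706518 on the minus strand, SNORD116-8 at chr15:25070432-25070526 and SNORD116-15 at chr15:25081287-25081378 on the plus strand, SNORA7B at chr3:129397210-129397348 and SNORA84 at chr9:92292461-92292593 on the minus strand.
SNORD41: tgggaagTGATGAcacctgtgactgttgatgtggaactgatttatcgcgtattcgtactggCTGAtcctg
SNORD116-8: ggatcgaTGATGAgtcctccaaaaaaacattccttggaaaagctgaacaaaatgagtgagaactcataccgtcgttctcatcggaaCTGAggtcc
SNORD116-15: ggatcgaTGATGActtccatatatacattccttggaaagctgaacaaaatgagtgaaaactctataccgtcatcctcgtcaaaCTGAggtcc
SNORA7B: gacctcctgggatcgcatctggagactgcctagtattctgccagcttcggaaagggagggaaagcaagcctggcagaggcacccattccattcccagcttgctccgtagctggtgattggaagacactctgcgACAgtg
SNORA84: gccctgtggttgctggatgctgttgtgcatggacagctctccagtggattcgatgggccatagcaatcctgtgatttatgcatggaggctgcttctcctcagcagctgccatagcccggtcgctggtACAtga
SNORD41 was at 1.79 ± 0.19, SNORD116-8 at 2.02 ± 0.26, SNORD116-15 at 2.05 ± 0.28, SNORA7B at 1.02 ± 0.13 and SNORA84 at 0.87 ± 0.11 by the authors' deposited table. The SNORD116 pair shows how alike the copies of that array are, and reads shared between copies make their single values uncertain. Of 24 copies of SNORD116 22 were higher, of 18 copies of SNORD114 5, and of 8 copies of SNORD113 4, while 82 of the other 170 RNAs were higher. SNORD3A, the U3 RNA that serves early processing of ribosomal RNA, at 0.09 ± 0.35 and its copy SNORD3C at 0.69 ± 0.32 did not pass by the authors' deposited table.

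The fold changes of the small RNAs mostly lay above those of their hosts. A host tested on the same strand was found in GENCODE v29 for 184 of them, in 107 hosts, of which 30 were higher and 42 lower, with a median of -0.06. The fold change of the small RNA lay above that of its host in 150 of 184 pairs, with a median difference of 0.71 on the log2 scale. Without the SNORD113, SNORD114 and SNORD116 arrays it lay above in 117 of 135, with a median difference of 0.81. Among the small RNAs that were higher and had a tested host, the host was higher for 47, lower for 29 and not called for 22. The count of 47 includes many copies from those arrays, which share hosts. Outside the arrays 68 small RNAs were higher, and the host was higher for 17, lower for 29 and not called for 22. SCARNA10, for example, was at 0.78 ± 0.13 and its host NCAPD2, a condensin subunit of mitosis, at -2.04 ± 0.08 by the authors' deposited table. SNORD20 was at 2.15 ± 0.47 and its host NCL, the nucleolar protein nucleolin, at -0.76 ± 0.09, and SNORA54 was at 0.87 ± 0.13 and its host NAP1L4, a histone chaperone, at -0.70 ± 0.09 by the authors' deposited table. Members named in this paragraph were chosen after their values were seen. Reads of an intronic small RNA can also be counted from unspliced host RNA, and the part of that was not tested.

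**Figure D2:**
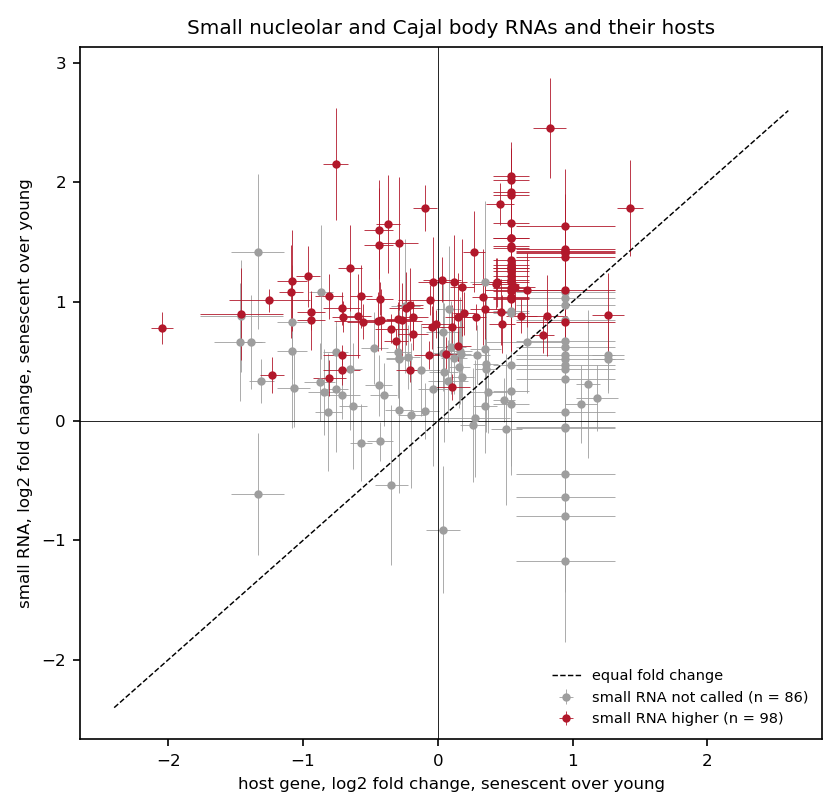
Log2 fold change of each small nucleolar or Cajal body RNA (vertical axis) against that of its host gene (horizontal axis), senescent over young shLuc cells, with the authors' standard errors as bars and the dashed line at equal fold changes. Of the 184 points 150 lie above the line, and those in vertical rows share a host.

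Other short RNAs were looked at beside them, as classes chosen after the values were seen. Of 22 mitochondrial tRNAs 9 were higher and none lower, with MT-TN at 0.99 ± 0.12 by the authors' deposited table. Of 357 copies of 7SL RNA, which share nearly all their sequence, 62 rose (17.4%) and 2 fell (0.56%). Over all tested genes 21.2% were higher and 21.3% lower, so the share that rose was below that of all genes. Of 20 Y RNAs and their copies 9 rose and 1 fell, that being RNY1 at -0.43 ± 0.12 by the authors' deposited table. Spliceosomal RNAs and their copies moved little, with 6 higher and 8 lower of 167. RMRP was lower at -0.39 ± 0.12, while RPPH1, that of RNase P, at 0.02 ± 0.10 and RN7SK, which restrains elongation by polymerase II, at 0.22 ± 0.14 did not pass by the authors' deposited table. Total RNA was purified on RNeasy columns per the labels' protocols, columns on which short RNA is bound less well than long RNA, and whether its recovery differed between the groups was not tested.

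MicroRNA genes gave few calls, 8 higher and 5 lower of 81, and the counted reads may be of precursors rather than mature forms. MIR24-2 was at -1.28 ± 0.29, MIR29B1 at -0.78 ± 0.19, MIR221 at 0.68 ± 0.26, MIR23A at 0.87 ± 0.36 and MIR125A at 1.19 ± 0.38 by the authors' deposited table. MIR23A and MIR24-2 lie in the same cluster on chromosome 19 and had opposite signs. Of their host transcripts, MIR503HG was at -1.63 ± 0.27, MIR155HG at -1.10 ± 0.42 and MIR22HG at 0.60 ± 0.11 by the authors' deposited table, and MIR143HG at -1.14 ± 0.15. The mature sequences that these genes and hosts carry are given from the RefSeq table of GRCh38.p14, 1 arm each, with the seed, bases 2 to 8, in capitals.
hsa-miR-24-3p: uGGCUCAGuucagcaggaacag
hsa-miR-29b-3p: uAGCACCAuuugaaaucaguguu
hsa-miR-503-5p: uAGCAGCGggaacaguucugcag
hsa-miR-155-5p: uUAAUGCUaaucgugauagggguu
hsa-miR-22-3p: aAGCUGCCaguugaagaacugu
hsa-miR-221-3p: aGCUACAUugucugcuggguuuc
hsa-miR-23a-3p: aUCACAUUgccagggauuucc
hsa-miR-125a-5p: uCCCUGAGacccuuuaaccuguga
These 8 seeds are all different. The first 4 belong to genes or hosts that fell and the other 4 to genes or hosts that rose. Among 39 tested noncoding genes in a list drawn up by symbol for hosts of small RNAs, a smaller set than the 107 hosts above, 14 rose and 5 fell. ZFAS1 was at 1.26 ± 0.12, NEAT1, the scaffold of paraspeckles, at 0.90 ± 0.10 and SNHG5 at 0.89 ± 0.12 by the authors' deposited table. The match is by symbol only, and NEAT1 and SNHG5 were not among the 107 hosts.

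Among metabolic genes, those for making nucleotides and for oxidizing pyruvate fell. Of 38 genes of folate and nucleotide synthesis 24 fell and 7 rose, with a median of -0.47. Beside CTPS1, PRPS1, which makes the ribose donor PRPP, was at -1.72 ± 0.09 and MTHFD1, a cytosolic folate enzyme, at -1.28 ± 0.09, while the mitochondrial MTHFD2 was at 0.96 ± 0.09 by the authors' deposited table. Of 37 genes of the tricarboxylic acid cycle and pyruvate metabolism 20 fell and 9 rose. CS, citrate synthase, was at -1.17 ± 0.09 and IDH2, the mitochondrial isocitrate dehydrogenase, at -0.75 ± 0.09, while IDH1, the cytosolic form, was at 1.32 ± 0.08 and PDK2, which shuts off pyruvate dehydrogenase, at 1.02 ± 0.10 by the authors' deposited table. Respiratory chain and ATP synthase subunits gave 24 lower and 9 higher of 76, and 43 did not pass. The share lower, 31.6%, was near the 28.6% of protein-coding genes, and the share higher was 11.8% against 27.6%. ATP5B, a catalytic subunit of ATP synthase, was at -0.92 ± 0.08 by the authors' deposited table. Of 15 transcripts of the mitochondrial genome 3 rose, among them both ribosomal RNAs, and 4 fell, with MT-CO3 at -1.18 ± 0.11 and MT-CO1, subunits of cytochrome oxidase, at -0.39 ± 0.11 by the authors' deposited table. In arginine and polyamine metabolism ODC1, which makes putrescine, was at -1.23 ± 0.09, AMD1 at -1.27 ± 0.10 and DDAH1, which degrades methylarginines, at -2.32 ± 0.09, while SAT1, which starts polyamine breakdown, was at 1.44 ± 0.11 and ASS1, of arginine synthesis, at 2.22 ± 0.09 by the authors' deposited table. NAMPT, which makes NAD from nicotinamide, was at 2.10 ± 0.09 and CAT, catalase, at 1.15 ± 0.09 by the authors' deposited table.

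Lipid, retinoid and steroid enzymes rose more often than they fell. Of 27 apolipoproteins and lipid transfer genes 17 rose and 6 fell, with a median of 0.86, and PLTP, which moves phospholipids between lipoproteins, was at 1.67 ± 0.10 by the authors' deposited table. Cytochromes P450 rose in 12 of 19 cases and fell in 1, with CYP24A1, which degrades vitamin D, at 3.86 ± 0.13, CYP1B1, of steroid and xenobiotic oxidation, at 2.75 ± 0.09 and CYP27A1, a sterol 27-hydroxylase, at 2.23 ± 0.10 by the authors' deposited table. The 12 include the sterol gene CYP51A1 and its pseudogenes CYP51P1 and CYP51P2, which share sequence. CYP19A1, the aromatase that makes estrogens, was at 4.21 ± 0.32 by the authors' deposited table and is named after its value was seen, since its base mean of 104 lay under the median of 135. Alcohol, aldehyde and retinoid enzymes rose in 20 of 37 cases and fell in 7. ADH1B, an alcohol dehydrogenase of liver and fat, led all genes, and its means could not be worked out because the estimates from 2 tables did not meet. ALDH2, which clears acetaldehyde, was at 1.67 ± 0.12 and ALDH1B1, a mitochondrial relative, at -1.88 ± 0.11 by the authors' deposited table.

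Lipid storage and prostanoid genes were mixed. FABP3, a fatty acid carrier, went from 313 to 2366 normalized counts, at 2.92 ± 0.11, and PLIN2, a coat protein of lipid droplets, was at 2.28 ± 0.09, while CAV1 and PTRF, which build caveolae, were at -1.75 ± 0.08 and -1.44 ± 0.09 by the authors' deposited table. Of the 20 prostanoid genes 7 rose and 4 fell. PTGIS, the prostacyclin synthase, was at 2.71 ± 0.10 and PTGES, the inducible prostaglandin E synthase, at 2.15 ± 0.15, whereas PTGS2, the inducible cyclooxygenase, was at 0.08 ± 0.16 and did not pass by the authors' deposited table. Of 30 glucocorticoid and steroid response genes 12 rose and 5 fell. HSD11B1, which regenerates cortisol, was at 3.25 ± 0.31 and KLF9 at 1.78 ± 0.10, while the glucocorticoid targets FKBP5 and DUSP1 were at -0.65 ± 0.13 and -1.26 ± 0.11 by the authors' deposited table. Selenoproteins and selenium handling gave 12 higher and 7 lower of 24, with GPX4, which reduces lipid peroxides, at 0.49 ± 0.10 and DIO2, which activates thyroid hormone, at -1.11 ± 0.14 by the authors' deposited table.

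Complement genes rose and none fell. Of 21 tested, 15 were higher, with a median of 1.45. The components C1S (from 4169.8 to 23187 normalized counts), at 2.48 ± 0.08, C3, on which the pathways of activation meet, at 2.96 ± 0.15, and CFB, of the alternative pathway, at 2.98 ± 0.16, rose together with inhibitors by the authors' deposited table. Those inhibitors were SERPING1, which blocks C1, at 2.53 ± 0.10 and CLU, or clusterin, at 2.50 ± 0.10 by the authors' deposited table. Several complement genes are known to respond to interferon. CFI and C5 did not pass, at 0.80 ± 0.43 and -0.33 ± 0.19 by the authors' deposited table. C3 and CFB were named after their values were seen.

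Of 42 interleukins and cytokine receptors tested, 21 rose and 9 fell. IL1R1, the receptor of interleukin 1, was at 2.25 ± 0.08 and IL1RN, its secreted antagonist, at 2.77 ± 0.20, while IL17RE was at -2.04 ± 0.24 and IL18 at -1.90 ± 0.30 by the authors' deposited table. Growth factors were balanced, 15 higher and 14 lower of 37. ANGPTL2, an angiopoietin-like factor, was at 2.27 ± 0.10 and FGF7, which acts on epithelium, at 1.80 ± 0.13, while FGF1 was at -2.48 ± 0.23 and FGF5 at -1.41 ± 0.11 by the authors' deposited table.

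Matrix genes moved in both directions. Collagens gave 8 higher (21.6%) and 7 lower (18.9%) of 37 tested. These shares were near those of all genes and under the 27.6% and 28.6% of protein-coding genes. COL1A2 and COL1A1, the chains of type I collagen, did not pass, at 0.13 ± 0.10 and -0.07 ± 0.10, and COL3A1 fell by 0.43 ± 0.09 by the authors' deposited table. COL14A1 and COL21A1, of the group that decorates fibrils, rose by 3.10 ± 0.15 and 3.62 ± 0.26, while the minor fibrillar chain COL11A1 was at -1.55 ± 0.10 by the authors' deposited table. In elastic fibres, 12 of 23 genes rose and 7 fell. MFAP4 was at 2.12 ± 0.11 and LTBP1, which stores latent TGF-beta, at 1.18 ± 0.08, while ELN, elastin itself, was at -1.34 ± 0.11 and the crosslinking enzymes LOXL2 and LOX at -1.38 ± 0.09 and -0.83 ± 0.10 by the authors' deposited table. Of 24 proteoglycans 12 rose and 8 fell, with the leucine-rich FMOD at 2.33 ± 0.12 beside DCN, and the cell-surface CSPG4 and SDC1 were at -1.34 ± 0.10 and -1.75 ± 0.10 by the authors' deposited table. Enzymes of glycosaminoglycans split 13 to 13 of 41, and SULF2, which trims sulfates from heparan sulfate outside the cell, was at 3.12 ± 0.14 by the authors' deposited table.

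Of basement membrane genes 10 of 18 rose and 3 fell, with the laminin chain LAMA3 at 1.79 ± 0.10 by the authors' deposited table. Matrix proteases rose in 14 of 34 cases and fell in 9, and MMP14, which activates MMP2 at the cell surface, at 1.27 ± 0.08, and the inhibitor TIMP1, at 1.26 ± 0.10, rose together, while MMP1 at -0.01 ± 0.10 did not pass by the authors' deposited table. Integrins split 7 to 6 of 22. ITGA11, a collagen receptor of fibroblasts, was at 1.76 ± 0.11 and ITGA6 and ITGA3, laminin receptors, at -2.37 ± 0.11 and -1.07 ± 0.09 by the authors' deposited table. Cadherins gave 5 lower and 1 higher of 13, with CDH2, N-cadherin, at -1.70 ± 0.09, and the gap junction protein GJA1 was at 1.48 ± 0.09 by the authors' deposited table.

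Receptors for peptides, amines and lipids fell in 14 of 41 cases and rose in 8, with a median of -0.40. BDKRB2, a bradykinin receptor, was at 2.38 ± 0.10 and F2R, a thrombin receptor, at -1.25 ± 0.09 by the authors' deposited table. Of 41 receptor tyrosine kinases 8 rose (19.5%) and 10 fell (24.4%), near the shares of all genes and under those of protein-coding genes. PDGFRA, a receptor of platelet-derived growth factor, was at 1.29 ± 0.09, ROR2, a WNT5A receptor, at 2.27 ± 0.10, MET, the receptor of hepatocyte growth factor, at -1.86 ± 0.11 and AXL at -1.33 ± 0.08, while EGFR at -0.19 ± 0.10 did not pass by the authors' deposited table. TGF-beta family genes split 17 to 16 of 45 and WNT genes 12 to 11 of 43. SFRP1, a WNT antagonist, was at 1.40 ± 0.08, while FST, which binds activin, was at -1.46 ± 0.08, SMAD6, an inhibitory SMAD, at -2.02 ± 0.15 and FZD7, a WNT receptor, at -1.36 ± 0.09 by the authors' deposited table. In the hedgehog list 9 of 16 rose and 4 fell, with CDON, a co-receptor, at 2.13 ± 0.16 and GLI2, a transcription factor of the pathway, at -1.69 ± 0.15 by the authors' deposited table.

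Enzymes of cyclic nucleotide signalling rose in 17 of 32 cases and fell in 5, with a median of 0.53. PRKG1 and PRKG2, kinases that respond to cyclic GMP, were at 2.08 ± 0.11 and 3.21 ± 0.27, and GUCY1B3, a subunit of the guanylate cyclase that nitric oxide activates, was at 1.58 ± 0.15 by the authors' deposited table. PDE1C, a calcium-dependent phosphodiesterase, was at -1.83 ± 0.12, and PDE5A, which degrades cyclic GMP, did not pass at -0.12 ± 0.11 by the authors' deposited table. Phospholipid and phosphoinositide enzymes rose in 22 of 49 cases and fell in 12, with PIK3IP1, an inhibitor of PI3-kinase, at 2.37 ± 0.12 by the authors' deposited table.

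Genes best known from the nervous system were among the increases. Axon guidance genes rose in 21 of 50 cases and fell in 8, with a median of 0.42. SEMA5A was at 1.96 ± 0.09 and NEO1, a receptor of netrins and RGM proteins, at 1.48 ± 0.17, while SEMA7A was at -2.48 ± 0.11 and SLIT2 at -0.83 ± 0.08 by the authors' deposited table. Of neuronal adhesion molecules 11 of 30 rose and 5 fell, and the teneurins TENM4 and TENM2, which pair across synapses, ran in opposite directions at 2.81 ± 0.13 and -3.14 ± 0.24 by the authors' deposited table. The neural markers SYT1 and SNAP25, proteins of synaptic vesicle release, did not pass, at -0.08 ± 0.31 and -0.04 ± 0.51 by the authors' deposited table, and ELAVL4 had a base mean of 0. Clustered protocadherins, which give neurons a surface identity and were grouped after their values were seen, rose in 10 of 14 cases in the beta cluster and in 15 of 22 in the gamma cluster, and none fell. Their called fold changes ran from 1.52 to 3.16 in the beta cluster and from 0.38 to 2.15 in the gamma cluster. These ranges do not compare the clusters, since beta genes such as PCDHB7 and PCDHB11 had few reads. Their standard errors were 0.58 and 0.64, against 0.12 for PCDHGC3, by the authors' deposited table, so that only large changes could be called. Members of these clusters share sequence, and the gamma genes share their last exons, so their reads can be split between them.

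Channels and carriers gave calls in both directions. Potassium channel subunits rose in 13 of 40 cases (32.5%) and fell in 5 (12.5%), against 27.6% and 28.6% of protein-coding genes. KCNJ2, an inward rectifier, was at 3.15 ± 0.15 and KCNQ5 at -1.98 ± 0.16 by the authors' deposited table. Of 15 calcium channel subunits 4 rose and none fell, a share near the 27.6% of protein-coding genes, among them the T-type channels CACNA1H at 2.68 ± 0.38 and CACNA1G at 1.80 ± 0.27 by the authors' deposited table. P-type ATPases gave 11 higher and 9 lower of 29. Of 224 solute carriers 84 rose and 48 fell, with a median of 0.22. SLC9A9, an endosomal sodium-proton exchanger, was at 2.76 ± 0.14 and SLC6A15, a carrier of branched-chain amino acids, at 2.50 ± 0.13, while SLC7A1, a carrier of arginine and lysine, was at -1.40 ± 0.08 and SLC19A1, the reduced folate carrier, at -2.02 ± 0.18 by the authors' deposited table. Of 35 ABC transporters 12 rose and 6 fell, with ABCC3 at 1.05 ± 0.10, and the lower ones ABCE1 and ABCF2, at -1.02 ± 0.12 and -1.01 ± 0.09 by the authors' deposited table, are proteins of ribosome function rather than of transport.

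Tubulins and keratins fell. Of 16 tubulins 14 fell and none rose, with a median of -1.20. TUBA1C and TUBB6 were at -2.36 ± 0.08 and -2.37 ± 0.08 by the authors' deposited table, and TUBE1, the epsilon tubulin of centrioles, at 0.37 ± 0.16 did not pass. Tubulin isotypes are similar in sequence, so reads may be split between them. Keratins fell in 8 of 13 cases and none rose. KRT7, an epithelial keratin, went from 5029 to 464 normalized counts and KRT18 from 2119 to 234, and their partner KRT8, at 0.24 ± 0.17 by the authors' deposited table, did not pass. LMNB2, a lamin, was at -2.53 ± 0.11 and NES, nestin, at -1.22 ± 0.09 by the authors' deposited table.

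Lists of traffic and cilia differed among themselves. Rab GTPases, which direct vesicles, rose in 23 of 52 cases and fell in 5, with RAB33A at 2.28 ± 0.16 and RAB31 at 0.99 ± 0.09, but RAB3B at -1.77 ± 0.08 by the authors' deposited table. Genes of the cilium rose in 19 of 47 cases and fell in 6, with WDR19 and IFT140, which carry cargo back from the ciliary tip, at 1.36 ± 0.12 and 1.10 ± 0.13 by the authors' deposited table. Transport from the endoplasmic reticulum to the Golgi gave 13 higher and 10 lower of 52, and endocytosis and recycling 19 and 17 of 50. Folding and import genes of the endoplasmic reticulum split 26 to 21 of 76, and the chaperones CALR, HYOU1 and MANF were at -1.16 ± 0.09, -1.10 ± 0.09 and -1.19 ± 0.11 by the authors' deposited table.

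Among transcription factors, nuclear receptors and their cofactors rose in 17 of 29 cases and fell in 2. NR4A3, an orphan receptor induced by many stimuli, was at 2.81 ± 0.17, PPARA, the receptor that drives fatty acid oxidation, at 1.37 ± 0.10 and NR1D1, of the circadian clock, at 1.43 ± 0.13, while NRIP1, a corepressor, was at -0.38 ± 0.11 by the authors' deposited table. Forkhead, SOX, TBX and KLF factors rose in 24 of 58 cases and fell in 10, with SOX4 at 2.16 ± 0.11 by the authors' deposited table. PRRX1, a factor of mesenchyme, rose by 1.48 ± 0.08 and GATA2 was at -1.74 ± 0.12 by the authors' deposited table. HOX genes, which keep positional identity in skin fibroblasts, gave 6 lower (22.2%) and none higher of 27, and 21 did not pass. That share lower was near the 21.3% of all genes and under the 28.6% of protein-coding genes. Zinc finger ZNF genes gave 95 higher (19.6%) and 72 lower (14.9%) of 484, and 317 did not pass. Both shares lay under those of all genes and of protein-coding genes. Chromatin modifiers split 29 to 32 of 104, with DNMT1, the maintenance DNA methyltransferase, and its partner UHRF1 at -1.92 ± 0.09 and -3.39 ± 0.13 by the authors' deposited table.

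The share of genes called higher was set beside gene span. Spans from RefSeq were found for 12691 of the 13132 protein-coding genes (96.6%). In the quintile of genes with the shortest span, median 5.47 kb, 24.97% were higher and 29.3% lower, and in the quintile with the longest, median 172 kb, 35.4% were higher and 22.2% lower. The median log2 fold change went from -0.05 to 0.14 between these quintiles. Without the genes set aside, the longest quintile had 35.3% higher and 21.8% lower. The median base mean was 317 in the shortest and 502 in the longest quintile, and base means grow with transcript length as well as with expression.

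Some neighbouring genes were called in the same direction. Runs were counted of consecutive tested protein-coding genes with a RefSeq entry, in RefSeq order, that were all called in the same direction. Other genes between them were passed over. As a description of where the calls fell, 10 runs held at least 7 genes. How many such runs the shares of higher and lower genes alone would give was not worked out. The longest, on chromosome 17, held 14 genes that rose, among them SLC16A6, FAM20A, KCNJ2, the lipid transporters ABCA8, ABCA9, ABCA6, ABCA10 and ABCA5, and SOX9, a factor of cartilage and skin appendages, with log2 fold changes between 0.41 for PRKAR1A and 4.25 for SLC16A6 by the authors' deposited table. ABCA8, ABCA9, ABCA6 and ABCA10 had few reads, with standard errors from 0.48 to 0.62 by the authors' deposited table. On chromosome 4 a run of 10 rose from WDFY3 to NUDT9, with SLC10A6, a carrier of sulfated steroids, at 3.02 ± 0.27 by the authors' deposited table. On chromosome 1 the neighbours CHI3L1, MYBPH, BTG2, FMOD and PRELP lay in a run of 7, with MYBPH, a myosin-binding protein, at 3.24 ± 0.23 by the authors' deposited table. The longest run of decreases held 9 genes on chromosome 11, with PRSS23, a secreted serine protease, at -1.89 ± 0.09 by the authors' deposited table. Runs of 7 also held beta and gamma protocadherins on chromosome 5.

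In promoters of the 1022 genes lower by at least 1 that had an entry, CCAAT, the core bound by NF-Y, was found on either strand in 45.9%, against 36.4% of all 10699. TTTGAA, the core of the cell cycle element CHR, was found in 18.3% of them against 9.76% of all, and in 22.0% of the 50 nuclear pore and transport promoters. TATAAA was found in 9.88% of the 931 promoters of genes higher by at least 1, and in 8.02% of those of genes lower by at least 1, against 5.89% of all. The first 2 shares include the cell cycle genes left aside above.

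The same comparison in the other hairpin was used to see where these values differ. The 2 senescence tables share no library. In the authors' deposited table of shFbxo22, 17.7% of 18758 genes were called, 8.16% higher and 9.57% lower. Of the 4498 genes higher in shLuc and tested in both, 10.9% were also higher there, 13.5% were lower and 75.6% were not called. Of the 4533 lower in shLuc, 18.8% were also lower, 8.41% higher and 72.8% not called. The responses differed by a z test of the difference in 6873 of 18598 genes, 37.0%.

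The 19 leading genes of shLuc senescence shown here all differed between the hairpins, though they were chosen for their size in shLuc, which in part fixes the sign of the difference. COL15A1, a collagen of basement membrane zones, was at 4.39 ± 0.16 in shLuc and -1.43 ± 0.20 in shFbxo22 by the authors' deposited tables, a difference of -5.82 ± 0.26. AGT stood at 4.72 ± 0.18 and -1.38 ± 0.29, a difference of -6.10 ± 0.34, by the authors' deposited tables. ACTC1 stood at -3.21 ± 0.17 and 1.68 ± 0.22, a difference of 4.89 ± 0.28, by the authors' deposited tables. Of the 9 leading decreases shown OXTR, F3, JPH2 and KRT34 had a negative fold change in both hairpins. Young shFbxo22 cells already differed from young shLuc cells, with CDKN1A higher by 4.51 ± 0.10 by the authors' deposited table, so the 2 responses start from different states.

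Among the lists, ribosome biogenesis gave 4 higher and 7 lower of 77 in shFbxo22, and the difference was called in 53 of 77, with shFbxo22 above shLuc in 52. Of the 46 proteasome subunits 3 fell and 2 rose there, with 32 differences called, and of the 75 mitochondrial ribosomal proteins 1 fell and 3 rose, with 36 called. Of the 79 splicing factors 25 fell and 3 rose in shFbxo22, with 52 differences called. Complement genes gave 1 higher and 2 lower of 20, with 14 of 19 differences called, all with shFbxo22 below. Small nucleolar and Cajal body RNAs rose in 30 of 203 cases and fell in none in shFbxo22, and the difference was called in 40 of 203. The largest standard error was 0.697 in the shLuc table and 0.333 in the shFbxo22 table, so fold changes of genes with few reads were drawn towards 0 by different amounts.

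**Figure D3:**
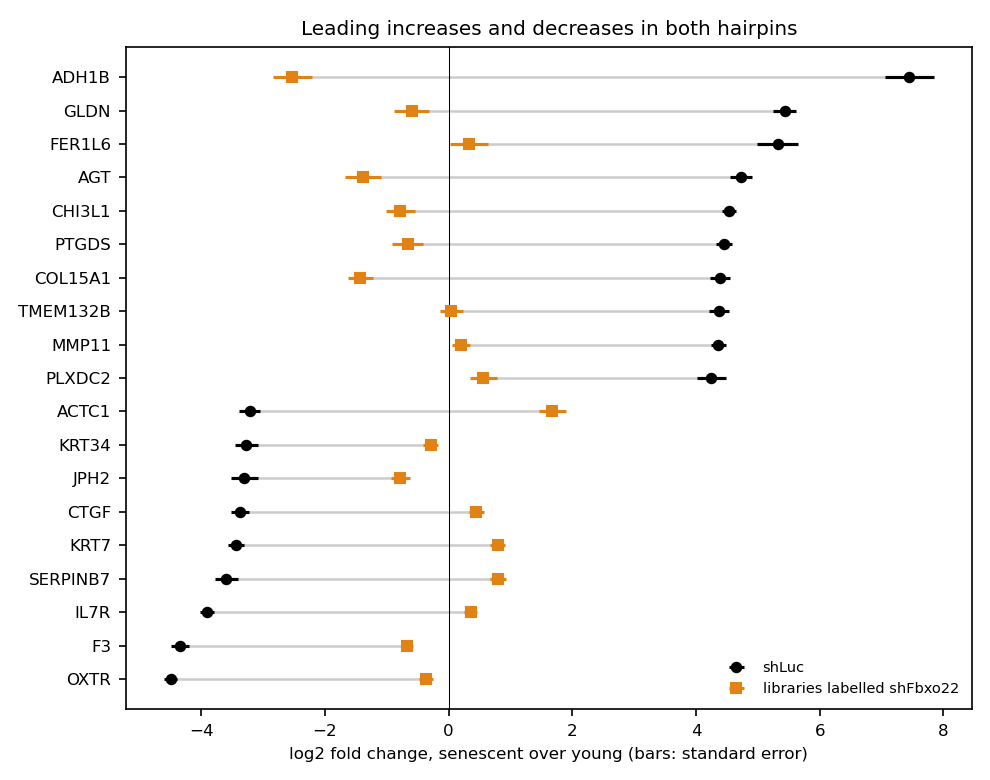
Log2 fold change of senescent over young cells for 10 leading increases and 9 leading decreases of shLuc, in shLuc (circles) and in the libraries labelled shFbxo22 (squares), with the authors' standard errors as bars. COL15A1 stands at 4.39 and -1.43, and ACTC1 at -3.21 and 1.68.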

How the data were processed

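Total RNA of HCA2 fibroblasts was sequenced with the Ion Total RNA-Seq kit v2, per the labels' protocols. The submitters' processing notes name Bowtie2 2.0.0, STAR 2.3.0, DESeq2 1.14.1, R 3.2.2 and the builds hg19 and GRCh37, with no role for each. Per the file headers, the authors deposited 4 DESeq2 result tables and no value per library. Base means are a normalized signal averaged over both groups, per the file headers. Fold changes and their standard errors are on the log2 scale, per the file headers. The Wald statistic is a score that the authors deposited beside each gene. Raw and adjusted p-values are those the authors deposited, and 21889 genes have an adjusted p. Fold changes were moderated towards 0, as the largest standard error of 0.697 shows, so those of low genes are understated.

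No header gives the direction of a fold change. Each sign was taken as the choice, of 16, under which the group means that the 4 tables share met best, with a mean absolute log2 difference of 0.00918 against 0.131 for the next, over the 9109 genes whose base mean reached 200. Group means follow from the base mean and the fold change with equal group sizes, and are printed for a gene only where 2 tables met within 10%.

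The difference between hairpins was tested with z, the difference over the root of the summed squared standard errors, with Benjamini-Hochberg adjustment over 18598 genes. Genes named are the 25 largest increases and decreases with at least the median base mean of 135, the 15 largest gains and losses by normalized count, both outside the lists set aside, pseudogenes and clone-named loci, and for each of 85 lists up to 3 called members a direction and 2 that did not pass. Genes named outside this rule, and the classes of short RNAs, protocadherins and neighbour runs, were chosen after their values were seen. Some of the genes and lists so chosen are not reported here. The comparison and lists were chosen with earlier results of these data known. The 5 lists set aside (cell cycle, histones, interferon, lysosome, sterol) hold 588 genes, 562 of them tested.

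Hosts and biotypes came from GENCODE v29, and promoters, microRNAs, spans and gene order from RefSeq tables (GRCh38.p14), matched by symbol. These are of another build than the authors', and no coordinate of the files was used. Scripts ran under Python 3.11.15 with numpy 2.4.6, pandas 2.3.3, scipy 1.17.1 and matplotlib 3.10.9, and the difference test was tested on simulated data. Alternatives were a stricter threshold, a fold minimum, other filters on low genes and recentred fold changes.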

Additional observations from a re-analysis of the deposited data

Results flagged for a closer look

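The response to senescence differed between the hairpins in 6873 of 18598 genes by the z test of the difference. For the leading increases of shLuc, the log2 fold change in the libraries labelled shFbxo22 minus that in shLuc was -9.98 for ADH1B, -6.10 for AGT, -6.03 for GLDN, -5.82 for COL15A1, -5.31 for CHI3L1, -5.11 for PTGDS, -4.99 for FER1L6, -4.32 for TMEM132B, -4.16 for MMP11 and -3.69 for PLXDC2. For the leading decreases it was 4.89 for ACTC1, 4.39 for SERPINB7, 4.26 for IL7R, 4.23 for KRT7, 4.13 for OXTR, 3.82 for CTGF, 3.67 for F3, 2.98 for KRT34 and 2.52 for JPH2. Of all genes tested, 37.0% were called by this test. In shFbxo22 the standard errors of ADH1B, FER1L6, AGT and GLDN were 0.31, 0.30, 0.29 and 0.28, near the largest there of 0.333. Their fold changes in shFbxo22 were thus drawn towards 0, and the sizes of these differences are uncertain. The genes were chosen as extremes of the shLuc fold change, which is 1 term of the difference, so the choice sets the sign and, in part, the test result.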

How the results depend on the processing

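Of the counts over all genes, those with a log2 fold change of at least 1 moved furthest, to 3620 called, 1751 higher and 1869 lower, since that minimum removes smaller changes. An adjusted p under 0.01 gave 7712 calls, no filter on low counts 8791, a base mean of at least 100 gave 7596, and recentred fold changes, a shift of 0.012, gave 9338. The difference between hairpins was called in 5338 genes at 0.01, in 5717 with a base mean of at least 100 and in 6868 after recentring. For the 647 genes named by the rule, 9 calls were lost and 15 gained over 2531 values under the alternatives other than the fold minimum. With a base mean of at least 100, 578 named genes kept their call and 12 gained one. Named genes under that base mean were left out there and are not counted as lost. No called direction could turn under these alternatives. Thresholds and filters leave fold changes as they are, and the shift of 0.012 lay under the smallest absolute called fold change of 0.177. The fold minimum would drop 161 of the 484 that were called. Counts of list members moved by over 1.5 times in 163 cases and did not in 687. Of the moved cases 121 came from the fold minimum, 31 from a base mean of at least 100, 10 from the threshold of 0.01 and 1 from using no filter. No paired analysis was possible because each deposited table gives group-level results only. For the same reason no replicate could be left out, no other count test was run and no library could be checked for depth or for standing apart.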
